A study of Arabidopsis thaliana with 9 samples.

Results

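The 10 genes described here encode basic leucine zipper (bZIP) transcription factors of the seed, namely ABI5, EEL, AREB3, bZIP67, bZIP53, bZIP10, bZIP25, ABF1, ABF3 and ABF4. They were selected by gene symbol, with earlier results of these data known, and make up 10 of the 33602 genes in the deposited table. All 10 averaged 1 TPM (length-corrected transcript share, scaled to a fixed total) or more over the 9 libraries, so all were tested. Their levels were compared in Arabidopsis thaliana siliques, the seed pods with the seeds inside, at 12 days past anthesis. Wild type plants (Columbia) were set against an scl15 knockout, described in the labels as lacking a functional gene, and against plants overexpressing SCL15 in seeds from a Napin:SCL15 construct. SCL15 belongs to the GRAS family of transcription regulators, and napin is a seed storage protein whose promoter is active in seeds. Each genotype had 3 libraries of polyA RNA, called biological replicates in the labels, and a p-value therefore measures the spread between these samples. The labels do not say how many transgenic or knockout lines were used, and whole siliques mix embryo, endosperm, seed coat and pod wall.

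Factors of the bZIP family bind DNA as dimers through a basic region and pair through a leucine zipper. ABI5, EEL, AREB3, bZIP67, ABF1, ABF3 and ABF4 belong to group A, whose members bind the abscisic acid response element (ABRE, with the core ACGTG) and act in the response to abscisic acid after phosphorylation by SnRK2 kinases. In maturing seeds ABI5 activates genes of late embryogenesis abundant (LEA) proteins such as EM1 and EM6, and EEL binds the same EM1 promoter site and opposes it. bZIP10 and bZIP25 of group C pair with bZIP53 of group S1 on storage protein promoters, together with ABI3.

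The sequences upstream of the genes are given first because the ABRE core is both the site that group A factors bind and a feature in which the members differed. The 250 bases before the annotated start of each gene were read from RefSeq TAIR10.1 and searched on both strands for the ABRE core ACGTG and for the RY core CATGCA, to which the B3 factor ABI3 binds. Overlapping matches were merged and counted as 1. ABI5 is shown for its number of cores, EEL for having none, and bZIP67 for holding both motifs. EM6, RAB18 and LEA76 (AT3G15670) are reported targets whose levels are described further on. Each window is written 5′ to 3′ on the strand of its gene, with ABRE cores of either strand in capitals.
ABI5 (chr2:15207637-15207886, minus strand): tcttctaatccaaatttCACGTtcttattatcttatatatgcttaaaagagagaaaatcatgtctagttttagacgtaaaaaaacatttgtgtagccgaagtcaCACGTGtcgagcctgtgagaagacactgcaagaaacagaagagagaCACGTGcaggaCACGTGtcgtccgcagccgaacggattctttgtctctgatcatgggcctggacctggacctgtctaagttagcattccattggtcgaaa
EEL (chr2:17129503-17129752, plus strand): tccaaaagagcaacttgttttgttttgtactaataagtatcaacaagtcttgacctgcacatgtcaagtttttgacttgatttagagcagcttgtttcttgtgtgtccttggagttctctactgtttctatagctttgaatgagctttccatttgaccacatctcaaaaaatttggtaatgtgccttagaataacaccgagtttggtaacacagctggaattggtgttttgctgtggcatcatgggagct
bZIP67 (chr3:16081907-16082156, minus strand): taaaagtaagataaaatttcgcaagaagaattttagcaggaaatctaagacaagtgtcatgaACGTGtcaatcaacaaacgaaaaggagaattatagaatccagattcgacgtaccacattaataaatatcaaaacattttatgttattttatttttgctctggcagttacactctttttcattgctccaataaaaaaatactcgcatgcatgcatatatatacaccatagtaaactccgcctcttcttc
EM6 (chr2:16780369-16780618, minus strand): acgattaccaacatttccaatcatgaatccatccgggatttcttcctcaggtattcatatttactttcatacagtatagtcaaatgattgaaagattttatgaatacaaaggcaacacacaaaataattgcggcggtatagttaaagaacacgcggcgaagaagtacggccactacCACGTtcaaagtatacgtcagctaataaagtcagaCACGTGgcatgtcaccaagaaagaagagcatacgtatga
RAB18 (chr5:26519448-26519697, minus strand): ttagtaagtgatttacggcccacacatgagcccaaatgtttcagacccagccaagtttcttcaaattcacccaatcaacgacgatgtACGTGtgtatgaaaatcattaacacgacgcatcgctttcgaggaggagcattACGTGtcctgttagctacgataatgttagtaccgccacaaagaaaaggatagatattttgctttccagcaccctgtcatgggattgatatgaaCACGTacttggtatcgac
LEA76 (chr3:5310989-5311238, minus strand): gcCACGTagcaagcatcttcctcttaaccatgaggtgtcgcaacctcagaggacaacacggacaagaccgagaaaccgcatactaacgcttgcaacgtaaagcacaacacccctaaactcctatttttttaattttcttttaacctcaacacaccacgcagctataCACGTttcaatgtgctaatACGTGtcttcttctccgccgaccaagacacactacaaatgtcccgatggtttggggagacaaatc

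The ABI5 window held 4 ABRE cores, beginning 233, 146, 100 and 89 bases before the gene start. Among the 27443 protein-coding genes searched in the same way, 22.9% had at least 1 core and 0.24% had at least 4. ABF1 had 2 cores, bZIP67, bZIP53, ABF3 and ABF4 had 1 each, and EEL, AREB3, bZIP10 and bZIP25 had none. Only the bZIP67 window held the RY core, 45 bases before its start, against 8.4% of all windows. ABI5 has 3 annotated transcripts, and the window lies before the annotated start of the gene, which need not be the start of each transcript. A match is a description of the letters and not a bound site, and a window without a match says nothing of sites elsewhere.

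**Figure D1:**
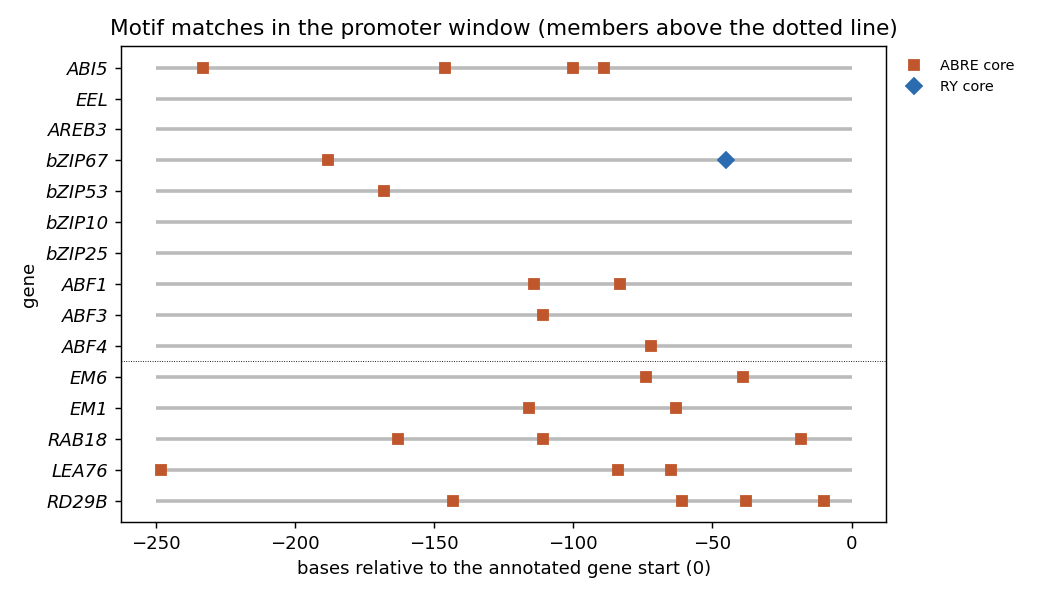
Positions of the ABRE core (squares) and the RY core (diamonds) in the 250 bases before the annotated gene start, for the 10 members and 5 reported targets; the x axis gives bases before the start. ABI5 and RD29B carry 4 ABRE cores each, and EEL, AREB3, bZIP10 and bZIP25 carry none.

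SCL15 itself (AT4G36710, chr4:17305758-17307648) averaged 13.8 ± 2.78 TPM in the wild type, 5.84 ± 0.886 in scl15 siliques and 550.4 ± 21.8 with overexpression (SD, n = 3). Transcript from the gene was thus still present in the libraries labelled knockout, and each line lay beyond the wild type in its labelled direction. TPM sum to a fixed total, and the 5 embryo storage protein markers took 16.4% ± 0.734 of it in the wild type, 14.5% ± 0.789 in the knockout and 24.7% ± 1.69 under overexpression (SD, n = 3). The median log2 fold change of all 16555 genes tested was 0.10 for the knockout and -0.28 for the overexpression line. After median-ratio scaling the latter became -0.00, and the split of called genes went from 278 higher and 3871 lower to 547 and 593. The same scaling turned the split in the knockout from 1519 higher and 1045 lower to 1018 and 1286. Changes in the members are therefore read beside these medians. In a bulk silique, fewer cells of a type and less RNA per cell cannot be told apart.

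In wild type siliques the members spanned a wide range of levels, and ABI5 held place 5 among them. EEL, a group A factor, was highest at 59.8 ± 12.9 TPM, followed by bZIP67 at 42.6 ± 8.49, bZIP10 at 31.9 ± 3.63, bZIP25 at 24.5 ± 3.24 and ABI5 at 22.7 ± 4.23 (SD, n = 3). Below them came AREB3 at 18.6 ± 3.53 TPM, ABF4 at 13.5 ± 2.23, bZIP53 at 12.6 ± 1.83, ABF1 at 8.26 ± 1.60 and ABF3 at 3.26 ± 0.271. The libraries of neighbours in this order overlapped, except between bZIP67 and bZIP10, bZIP10 and bZIP25, bZIP53 and ABF1, and ABF1 and ABF3. TPM are corrected for length, so levels can be set beside each other across genes.

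**Figure D2:**
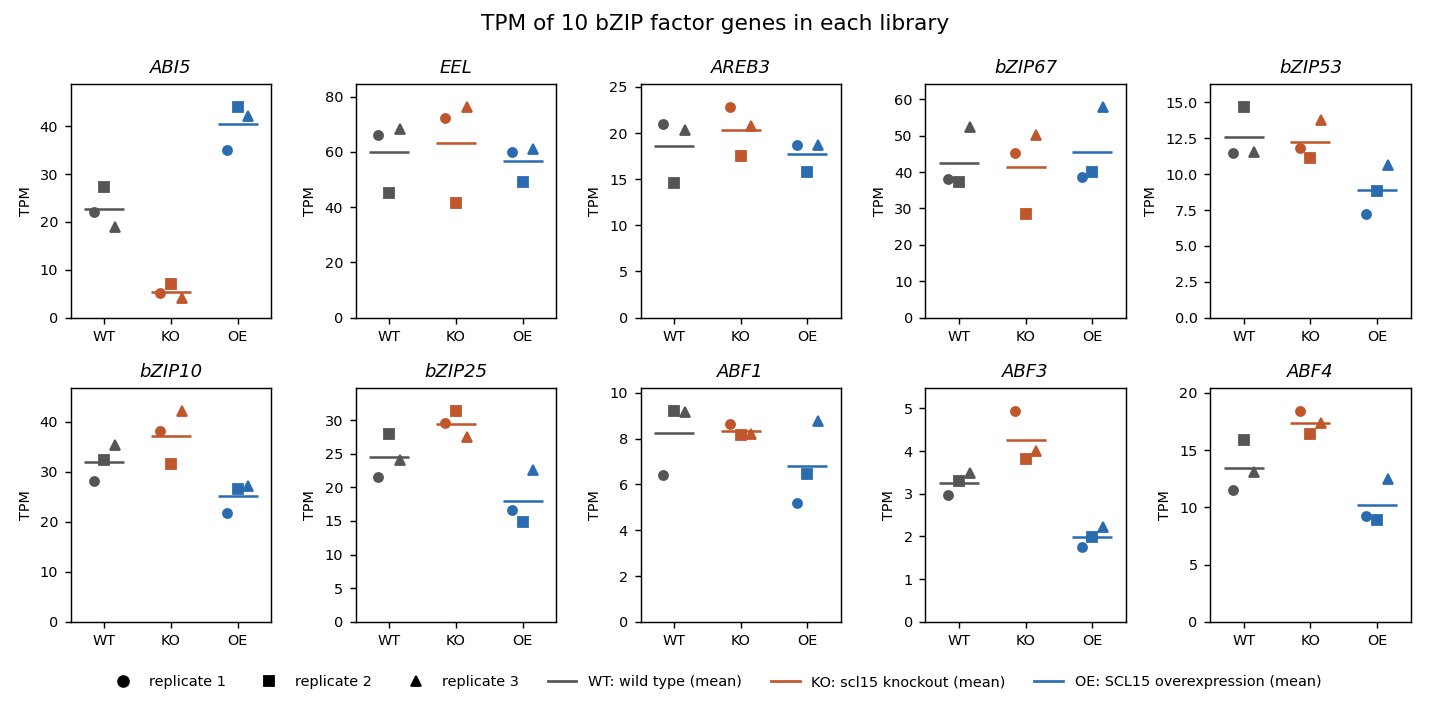
TPM of each of the 10 members (panels, linear axes from 0) in the 9 libraries by genotype; points are libraries, with the replicate number as marker shape, and the line is the mean. ABI5 is the only panel in which the knockout lies below and the overexpression line above every wild type library.

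ABI5 (AT2G36270, chr2:15204659-15207636), the group A factor known for arresting growth of germinating seeds under abscisic acid, fell in the knockout and rose in the overexpression line. Its level was 22.0, 27.3 and 18.9 TPM in wild type replicates 1 to 3. In the knockout it was 5.17, 6.96 and 4.02 TPM, and in the overexpression line 35.0, 44.0 and 42.2 TPM. The 3 genotypes did not overlap, with every knockout library lowest and every overexpression library highest. The knockout mean was 0.237 times and the overexpression mean 1.78 times that of the wild type. Fold changes are given as log2(TPM + 1), a scale on which changes of low genes come out too small, and ABI5 differed by -1.91 (SE 0.18, limma adjusted p = 9.99e-06) in the knockout and by 0.81 (SE 0.18, adjusted p = 0.00686) in the overexpression line. Both calls held in all 20 alternative settings, with the difference between -2.09 and -1.75 in the knockout and between 0.69 and 1.14 in the overexpression line. In the 3 rescaled tables the overexpression value was 1.12 to 1.14.

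Markers of other tissues also differed between the genotypes. The 7 silique wall and valve margin markers summed to 712 to 1094 TPM in the wild type, 507 to 758 in the knockout and 513 to 613 under overexpression. Of these 7, 1 was higher and 2 were lower in the knockout, and 4 were lower in the overexpression line. Among all genes tested, 9.18% were called higher and 6.31% lower in the knockout, and 23.4% lower in the overexpression line. The 7 seed coat markers summed to 172.6 to 197 TPM in the wild type, 212 to 255 in the knockout and 179.7 to 209.6 under overexpression. Most of that sum was TT10, at means of 153 TPM in the wild type, 192 in the knockout and 168 under overexpression. Of the 5 seed coat markers tested, GL2 and TTG2 were higher and TT1 was lower in the knockout, and MUM4 was lower in the overexpression line. The knockout call of TTG2 held in only 8 of 19 alternatives, that of GL2 in 20 of 20 and that of TT1 in 17 of 17. Among the 5 endosperm markers the sums were 3757 to 6252, 3021 to 3082 and 3748 to 8016 TPM, nearly all of it from EPR1. In the knockout the mean of EPR1 was 3039 TPM against 4667 in the wild type, while ZOU (4.21 against 2.21 TPM) and PHE1 (5.26 against 3.38 TPM) lay the other way. Limma called 0 of the 3 endosperm markers tested in either line, with 2 at an unadjusted p under 0.05 in the knockout and 0 under overexpression. None of the markers was at 0 in every library, although 2 of the endosperm and 2 of the seed coat list averaged under 1 TPM. Limma called none of the 5 embryo storage markers in the knockout, where 0 had an unadjusted p under 0.05. It called 1 of them higher in the overexpression line, where 3 had an unadjusted p under 0.05. There 4 of the 5 did not overlap with the wild type, against 43% of all genes. The part of these differences in the result for ABI5 was not tested.

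Across the whole set, ABI5 was the only member called in the knockout, lower, against 15.5% of all genes tested called in either direction (9.18% higher and 6.31% lower). The other 9 were not past the threshold, and the median log2 fold change of the 10 was 0.09, beside 0.10 for all genes. Without overlap between knockout and wild type libraries were ABI5, ABF3 and ABF4, or 3 of 10, against 33% of all genes. Overexpression against the wild type gave 1 member higher (ABI5) and 1 lower (ABF3), against 25.1% of all genes called (1.68% higher and 23.4% lower). With the replicate number as a block, 1 was higher and 3 were lower (ABF3, bZIP53 and bZIP25), against 31.9% of all genes called. There the members' median was -0.29, beside -0.28 for all genes, and ABI5, bZIP53, bZIP10 and ABF3 did not overlap with the wild type, or 4 of 10 against 43%.

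**Figure D3:**
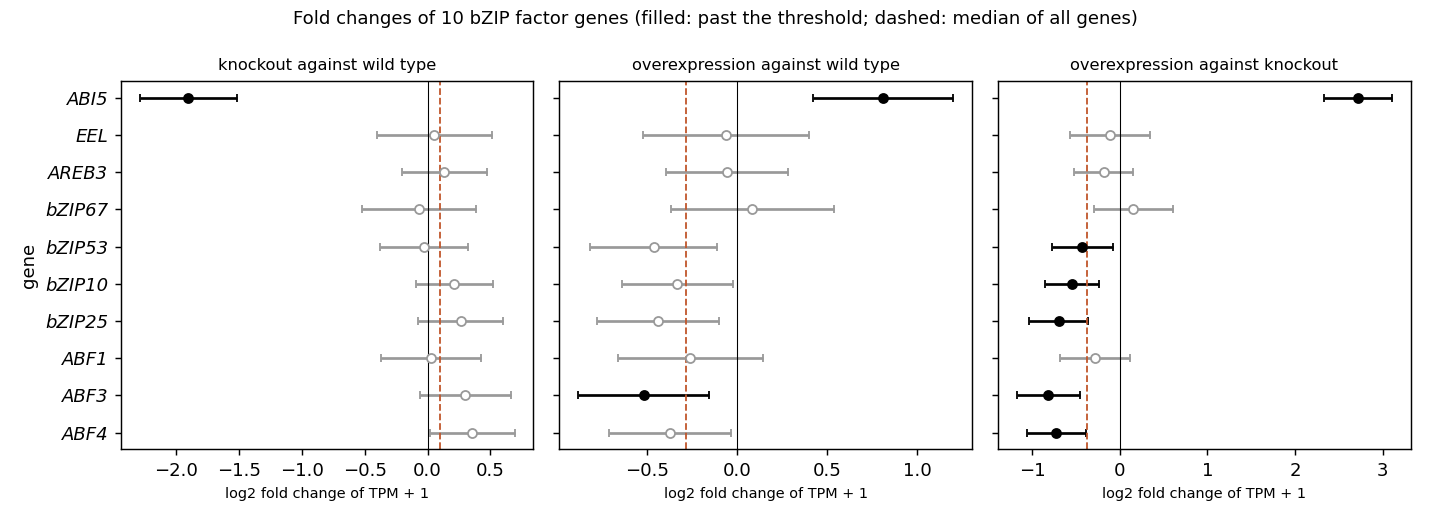
Log2 fold changes of TPM + 1 for the 10 members in the 3 comparisons, with 95% intervals; filled points are past an adjusted p of 0.05 and the dashed line is the median of all genes tested. ABI5 has the lowest value in the knockout and the highest in the overexpression line, while the calls of bZIP53, bZIP10, bZIP25 and ABF4 below the knockout were lost under all 3 rescalings.

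The other 3 embryo factors of group A did not pass the threshold in any comparison with the wild type. EEL (AT2G41070, chr2:17129753-17132386) was at 66.1, 45.0 and 68.2 TPM in the wild type, 72.2, 41.3 and 76.2 in the knockout and 59.9, 49.1 and 61.0 in the overexpression line. The 3 genotypes overlapped, and replicate 2 was the lowest of its group in each. The difference was 0.05 in the knockout (95% interval -0.41 to 0.51, adjusted p = 0.9) and -0.06 in the overexpression line (-0.52 to 0.40, adjusted p = 0.856). AREB3 (AT3G56850, chr3:21046234-21048614), an ABRE-binding factor, was at 21.0, 14.6 and 20.4 TPM in the wild type, 22.8, 17.6 and 20.7 in the knockout and 18.7, 15.8 and 18.7 in the overexpression line. All genotypes overlapped here as well, with differences of 0.13 (95% interval -0.21 to 0.47, adjusted p = 0.641) in the knockout and -0.05 (-0.39 to 0.28, adjusted p = 0.822) in the overexpression line.

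bZIP67 (AT3G44460, chr3:16079432-16081906) is reported to act on seed genes such as FAD3 and DOG1. It was at 38.1, 37.4 and 52.4 TPM in the wild type, 45.4, 28.4 and 50.1 in the knockout and 38.6, 40.1 and 57.9 in the overexpression line. Replicate 3 was the highest of each group, and the genotypes overlapped. The difference was -0.07 in the knockout (95% interval -0.52 to 0.39, adjusted p = 0.874) and 0.09 in the overexpression line (-0.37 to 0.54, adjusted p = 0.783).

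None of the 3 group C and S1 factors that pair on storage protein promoters passed the threshold against the wild type as deposited. In the overexpression line bZIP53 passed it in 5 of 20 alternatives, bZIP25 in 4 and bZIP10 in 0. Those of bZIP53 and bZIP25 included the replicate block and the fit without overexpression replicate 3. bZIP53 (AT3G62420, chr3:23091586-23092850) was at 11.5, 14.7 and 11.5 TPM in the wild type, 11.8, 11.1 and 13.8 in the knockout and 7.20, 8.85 and 10.7 in the overexpression line. Every overexpression library lay below every wild type library, and the knockout overlapped with the wild type. The overexpression difference was -0.46 (SE 0.16, adjusted p = 0.0526, or 0.0344 with the replicate number as a block) and that of the knockout -0.03 (adjusted p = 0.923). bZIP10 (AT4G02640, chr4:1153945-1156356) was at 28.1, 32.3 and 35.3 TPM in the wild type, 38.1, 31.5 and 42.1 in the knockout and 21.8, 26.5 and 27.2 in the overexpression line. Again the overexpression libraries all lay below the wild type ones, with a difference of -0.33 (adjusted p = 0.103), and the knockout differed by 0.21 (adjusted p = 0.372).

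bZIP25 (AT3G54620, chr3:20217854-20220497), the close relative of bZIP10, was at 21.5, 27.9 and 24.0 TPM in the wild type, 29.5, 31.3 and 27.5 in the knockout and 16.6, 14.8 and 22.6 in the overexpression line. Its genotypes overlapped with the wild type on both sides. The difference was 0.26 in the knockout (SE 0.16, adjusted p = 0.305) and -0.44 in the overexpression line (SE 0.16, adjusted p = 0.0551, or 0.0392 with the replicate block). The summed level of bZIP10, bZIP25 and bZIP53 was 69.0 ± 7.12 TPM in the wild type, 78.9 ± 4.75 in the knockout and 52.1 ± 7.63 under overexpression (SD, n = 3). These sums are of TPM as deposited, where the median of all genes was -0.28 in the overexpression line. Over the 20 alternatives the overexpression difference ran from -0.59 to -0.16 for bZIP53, -0.60 to -0.12 for bZIP25 and -0.42 to -0.0085 for bZIP10.

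The ABF factors are best known from the response to drought and abscisic acid in vegetative tissue, and ABF3 had the lowest mean of all members in every genotype. ABF3 (AT4G34000, chr4:16295334-16298285) was at 2.96, 3.31 and 3.50 TPM in the wild type, 4.94, 3.83 and 3.99 in the knockout and 1.74, 1.98 and 2.21 in the overexpression line. The 3 genotypes did not overlap, in the order opposite to that of ABI5. The knockout difference of 0.30 (SE 0.17, adjusted p = 0.278) did not pass the threshold, and the overexpression difference of -0.52 (SE 0.17, adjusted p = 0.0395) did. That call was lost under all 3 rescalings (-0.28, adjusted p = 0.342; -0.26, adjusted p = 0.359; and -0.36, adjusted p = 0.322) and in 10 of 19 alternatives in all, those without any 1 wild type library or without overexpression replicate 1 or 2 among them (adjusted p = 0.065 to 0.116).

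ABF4 (AT3G19290, chr3:6687042-6690123) was at 11.5, 15.9 and 13.1 TPM in the wild type, 18.4, 16.4 and 17.3 in the knockout and 9.27, 8.90 and 12.5 in the overexpression line. The knockout libraries all lay above the wild type ones, while the overexpression libraries overlapped with them. The differences of 0.35 (SE 0.16, adjusted p = 0.158) and -0.37 (adjusted p = 0.0987) were not past the threshold. The overexpression difference passed it in 2 of 20 alternatives, both without overexpression replicate 3 (-0.51, adjusted p = 0.0309 with only that library left out). ABF1 (AT1G49720, chr1:18400003-18402628) was at 6.41, 9.20 and 9.16 TPM in the wild type, 8.66, 8.15 and 8.22 in the knockout and 5.18, 6.46 and 8.77 in the overexpression line. Its genotypes overlapped, with differences of 0.03 (adjusted p = 0.94) and -0.26 (adjusted p = 0.318).

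Set directly against the knockout, the overexpression line had 1 member higher and 5 lower, against 49.2% of all genes called (6.16% higher and 43.1% lower). ABI5 was higher by 2.72 (SE 0.18, adjusted p = 1.62e-07), with a mean 7.50 times that of the knockout. The largest of the lower calls was ABF3 (-0.81, SE 0.17, adjusted p = 0.00152), followed by ABF4 (-0.72, adjusted p = 0.00208), bZIP25 (-0.70, adjusted p = 0.00247), bZIP10 (-0.54, adjusted p = 0.00677) and bZIP53 (-0.43, adjusted p = 0.0419). The members' median of -0.36 lay beside -0.38 for all genes, and 6 of 10 did not overlap, against 56.7%. ABI5 and ABF3 stayed past the threshold under all 3 rescalings, ABF3 with -0.50 after median-ratio scaling (adjusted p = 0.0324). The other 4 lower calls were lost under each of them, and bZIP53 in 12 of 20 alternatives. bZIP67 was higher after median-ratio scaling (0.58, adjusted p = 0.0477) and not past the threshold otherwise. The values for bZIP53 without knockout replicate 1 or 3 were adjusted p = 0.0798 and 0.129, without overexpression replicate 1 or 2 they were 0.176 and 0.0859, and without wild type replicate 1 or 3 they were 0.0518 and 0.05.

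The summed level of the 10 members was nearly level in TPM as deposited, at 237.7 ± 16.3 in the wild type, 239.2 ± 37.1 in the knockout and 231.5 ± 28.0 under overexpression (SD, n = 3). The sum depends on the scaling between libraries, and the median log2 fold change of all genes was -0.28 in the overexpression line. Within that sum the share of ABI5 was 9.61%, 12.0% and 7.38% in the wild type libraries, 2.01%, 3.54% and 1.53% in the knockout and 16.4%, 20.3% and 16.0% in the overexpression line. The 3 groups did not overlap, and ABI5 held place 5 among the members in the wild type, place 9 in the knockout and place 3 in the overexpression line. This share is a ratio within each library and does not depend on the scaling between libraries. EEL kept the first place in all 3 genotypes, at 25.1% ± 4.73 of the sum in the wild type, 26.0% ± 4.33 in the knockout and 24.6% ± 2.94 under overexpression.

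The 5 genes whose profile over the 9 libraries was nearest to that of ABI5 were LEA76, RAB18, AT1G72100, AT4G25580 and AT1G16850. Likeness was the root mean square difference of log2(TPM + 1) after centring each gene on its wild type mean, over the 10581 genes that averaged 5 TPM or more. The distances were 0.0877 for LEA76, a LEA protein gene, 0.105 for the dehydrin gene RAB18, 0.113 for the LEA-domain gene AT1G72100, 0.115 for AT4G25580 and 0.123 for AT1G16850. Mean levels in the wild type, knockout and overexpression line were 1558, 440.5 and 2592 TPM for LEA76 and 2362, 624 and 4263 TPM for RAB18. AT1G72100 stood at 109, 29.1 and 201 TPM, AT4G25580 at 31.5, 7.37 and 52.5, and AT1G16850 at 66.1, 16.9 and 117. Among the other members, bZIP67 was nearest to ABI5 at 1.23 and ABF4 farthest at 1.49, and ABF3 was below the level needed for ranking. These genes were picked by their values over all 9 libraries, so their likeness to ABI5 is a description with no test. LEA76 and RAB18 also stand in the list of reported targets, under which their tests are given.

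**Figure D4:**
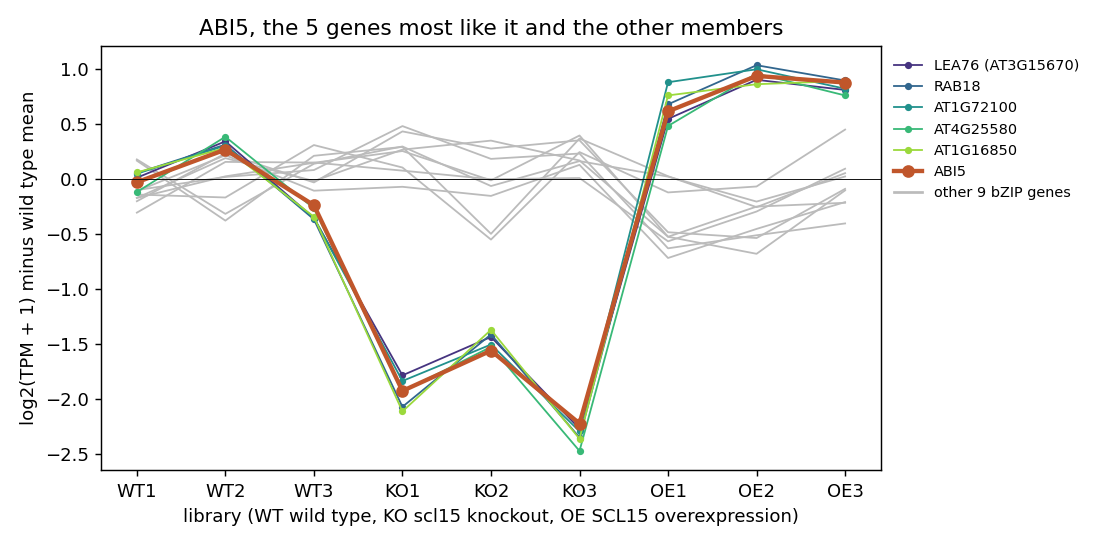
Log2(TPM + 1) minus the wild type mean in each of the 9 libraries for ABI5, the 5 genes nearest to it (coloured) and the other 9 members (grey); lines only guide the eye. ABI5 and its nearest genes lie below 0 in every knockout library and above 0 in every overexpression library.

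The other bZIP factors of groups A, C and S1 numbered 12, of which 9 were tested and FD, FDP and bZIP15 averaged under 1 TPM. In the knockout 2 of 9 were higher and none lower, against 9.18% and 6.31% of all genes, with a median of 0.03 beside 0.10 for all genes. bZIP63, a group C factor, stood at 3.78 TPM in the wild type and 7.82 in the knockout (0.86, SE 0.21, adjusted p = 0.0127), a call lost without wild type replicate 1 (adjusted p = 0.0625) or knockout replicate 1 (adjusted p = 0.0738). bZIP9, also of group C, stood at 30.0 and 40.8 TPM (0.43, SE 0.13, adjusted p = 0.0423) and was past the threshold in only 7 of 20 alternatives. In the overexpression line 6 of 9 were lower, against 23.4% of all genes, with a median of -0.51 beside -0.28 for all genes. bZIP63, at 1.81 TPM (-0.77, adjusted p = 0.0192), and bZIP9, at 18.5 TPM (-0.68, adjusted p = 0.0037), were among them, and bZIP11 of group S1 fell from 22.3 to 14.6 TPM (-0.58, adjusted p = 0.00896). These 3 calls were lost under all 3 rescalings, and that of bZIP63 also without wild type replicate 2 (adjusted p = 0.0718) or overexpression replicate 1 (0.0632). bZIP1 of group S1, a factor of the low-energy response, was at 8.49 TPM in the wild type and 4.09 in the overexpression line (-0.90, SE 0.15, adjusted p = 0.00178) and was the only one still called after median-ratio or quantile scaling.

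Regulators that act on ABI5 and the ABFs numbered 18, all tested. They comprise SnRK2 kinases, the AFP proteins that bind ABI5, the KEG, DWA and ABD1 parts of ubiquitin ligases, the SUMO ligase SIZ1, the phosphatase subunits FYPP1 and FYPP3, the kinase BIN2, and the transcription factors ABI3, ABI4 and HY5. In the knockout limma called 0 of 18, against 15.5% of all genes, with 3 at an unadjusted p under 0.05 and a median of -0.03. ABI3, the B3 factor that acts with ABI5 in seeds, was at 32.6, 32.0 and 33.8 TPM in the wild type, 39.9, 32.0 and 33.2 in the knockout and 45.6, 60.4 and 49.3 in the overexpression line. The overexpression libraries all lay above the wild type ones (0.63, SE 0.13, adjusted p = 0.00503), past the threshold in all 20 alternatives, and the knockout overlapped with the wild type (0.09, adjusted p = 0.726). In the overexpression line 5 of 18 were lower, near the 23.4% of all genes called lower, namely the kinases OST1 (-0.64) and SNRK2.3 (-0.50), HY5 (-0.57), FYPP3 (-0.51) and AFP3 (-0.46). None of these 5 was past the threshold after median-ratio scaling, and all but OST1 lost it without wild type replicate 2 (adjusted p = 0.0645 to 0.132) or overexpression replicate 2 (0.074 to 0.101). SNRK2.3 and AFP3 were named after their values were seen.

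Genes reported as targets of the members numbered 20, all tested. In the knockout 12 were lower and none higher, or 60%, against 6.31% of all genes called lower, and the median was -0.53 beside 0.10 for all genes. EM6, the group 1 LEA protein gene, was at 389, 496 and 321 TPM in the wild type and at 16.5, 24.1 and 12.5 in the knockout. The knockout libraries all lay below the wild type ones (-4.45, SE 0.20, adjusted p = 2.26e-08). EM1, its close relative, was at 437, 568 and 367 TPM in the wild type and at 68.5, 111 and 42.9 in the knockout (-2.69, SE 0.26, adjusted p = 1.1e-05). RAB18 fell by 1.95 and LEA76 by 1.83 on the log2 scale. Also lower were ASN1 (-1.71), RD29B (-1.57), RD29A (-1.29) and NYC1 (-0.80), and less so DOG1, SGR1, FAD3 and CAT1 (-0.57 to -0.40). The call of DOG1 was lost without wild type replicate 2 or 3 or knockout replicate 2 or 3 (adjusted p = 0.0632 to 0.0857). That of CAT1 was lost without wild type replicate 1 or 2, knockout replicate 1 or 3, or overexpression replicate 1 (adjusted p = 0.0512 to 0.143). The storage protein genes SESA1, SESA2 and CRU3 were not past the threshold.

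In the overexpression line 6 of the 20 were higher and 1 lower, or 35%, against 25.1% of all genes called and 1.68% called higher, with a median of 0.12 beside -0.28 for all genes. EM6 was at 743, 901 and 923 TPM there (1.10, adjusted p = 0.00264) and EM1 at 853, 1032 and 872 (1.02, adjusted p = 0.0125). RAB18 (0.87, adjusted p = 0.0143), RD29B (0.79, adjusted p = 0.00648), LEA76 (0.75, adjusted p = 0.0209) and DOG1 (0.65, adjusted p = 0.00993) rose as well. The calls of RAB18 and LEA76 were lost without wild type replicate 3 (adjusted p = 0.0603 and 0.0838) or overexpression replicate 2 (0.0582 and 0.0769), that of LEA76 also without wild type replicate 1 (0.0559), and that of EM1 without overexpression replicate 2 (0.0538). PGIP2, an inhibitor of pectin-degrading enzymes, was the 1 lower gene (-0.68, adjusted p = 0.00889), and this call was lost under all 3 rescalings, while 9 of the 20 were higher after median-ratio scaling. In the 250 bases before the start, 13 of the 20 had an ABRE core, against 22.9% of all genes searched. Among them were EM6 with 2, RAB18 and LEA76 with 3 and RD29B with 4. The list holds reported targets of factors that mostly bind this core, so the share is a description and no separate evidence. CRU3 with 3 cores and SESA2 with 2 were not past the threshold in either line as deposited. Under overexpression every CRU3 library lay above the wild type ones, at a mean of 140357 against 84494 TPM. CRU3 passed the threshold there in some alternatives, such as the replicate block (0.73, limma adjusted p = 0.0383). RD29A, NYC1, SGR1 and DOG1, all lower in the knockout, had no core in this window, which says nothing of sites elsewhere. Both lines were compared with the same wild type libraries, so the counts of genes called in them are not independent of each other. The genes after RAB18 and LEA76 in the knockout, and DOG1, LEA76 and PGIP2 here, were named after their values were seen. SESA genes and HSD1 have near-identical copies that may share reads.

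**Figure D5:**
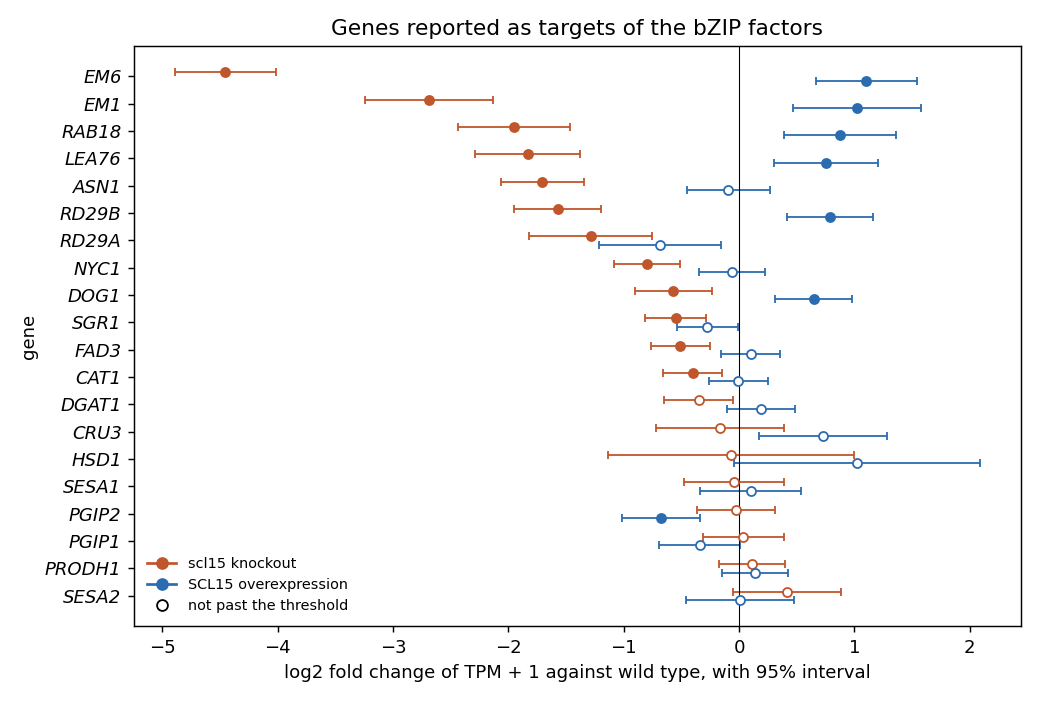
Log2 fold changes of TPM + 1 with 95% intervals for the 20 reported targets in the knockout and the overexpression line against the wild type; open points are not past the threshold. Of the 20, 12 are lower in the knockout and 6 are higher in the overexpression line.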

How the data were processed

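PolyA RNA of 12-day siliques was sequenced from stranded libraries, 3 per genotype, per the labels' protocols. The values deposited by the authors are TPM per gene. The submitters' processing notes name the build TAIR 10. Aligner, counter, annotation, strand use and filters are each not given in the sources used here. TPM keep no read depth, so the depth behind each value is unknown and no counting interval is given. Every library sums to the same total, and a rise of abundant transcripts lowers all others. Libraries of 1 group correlated at Pearson r of 0.975 to 0.986 across genes, and no 2 were identical.

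The members and gene lists were chosen with earlier results of these data known, and no list median or count is independent evidence. The test was limma (version 3.58.1, under R 4.3.3) on log2(TPM + 1), fitting all 9 libraries together with 6 residual degrees of freedom and a prior variance that follows abundance. The 16555 genes averaging 1 TPM or more were tested, called at a Benjamini-Hochberg adjusted p of 0.05 over all of them, two-sided. The labels number replicates 1 to 3 in each genotype without saying what a number shares. Deviations of same-numbered libraries from their group means correlated at 0.13 to 0.18 for all 3 pairs of wild type and overexpression libraries, but at -0.06 for the wild type and knockout libraries numbered 1 and 0.074 for the knockout and overexpression libraries numbered 1. The knockout libraries numbered 2 and 3 correlated at 0.35 and 0.27 with those of the wild type, and at 0.16 and 0.13 with overexpression. Over all same-numbered pairs the mean was 0.15, against -0.076 for pairs of different numbers. Deviations within a group sum to 0, so these means are tied and the latter is no separate baseline. With a criterion of over 0.1 in every pair, only the wild type and overexpression libraries met it, and the knockout missed it in its library numbered 1. An exact two-sided permutation test of SCL15 gave p = 0.1 in each comparison, the smallest possible with 3 against 3 libraries. Named were all members, SCL15, up to 4 called genes of largest change per list and comparison with the wild type (or the 2 most abundant where none was called), and the 5 genes most like ABI5; others are named as chosen after their values were seen. The 20 alternatives were 3 rescalings (median-ratio, quantile, and without storage markers and the 100 most abundant genes), pseudocounts of 0.1 and 0.5 TPM, no filter or one of 5 TPM, fits of only the compared groups, without the trend or with the replicate number as a block, leaving out each library, and leaving out both libraries numbered 3 of the altered lines. All 84 listed IDs were found in the table, and 97.7% of its IDs in RefSeq TAIR10.1, which gave coordinates and upstream sequence. Tables and figures used Python 3.11.15, pandas 2.3.3 and matplotlib 3.10.9.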

Additional observations from a re-analysis of the deposited data

How the results depend on the processing

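The fall of ABI5 in the knockout and its rise in the overexpression line stayed past the threshold in all 20 alternatives. The number of all genes called in the knockout ran from 1696 to 2822 when 1 library was left out, and in the overexpression line from 2144 to 4399. Rescaling lowered the latter to 1140 (median-ratio), 1120 (quantile) and 1185 (without abundant genes), and the overexpression against knockout count to 4602, 4649 and 4600. Members called in the overexpression line against the wild type numbered 2 as deposited and 1 under each rescaling, without the filter or with only the 2 groups, but 5 without both libraries numbered 3, and 1 to 5 when 1 library was left out. With the replicate block 4 members were called there, bZIP53 (adjusted p = 0.0344) and bZIP25 (adjusted p = 0.0392) joining, and no other member's call changed in any comparison; 3442, 5281 and 8863 of all genes were called in the 3 comparisons. The numbers met the pairing criterion for the wild type with the overexpression line, but not for the knockout with either, where the libraries numbered 1 missed it. Against the knockout, 6 members were called as deposited and 3, 2 and 2 under the 3 rescalings. Signs changed in the knockout for EEL (-0.044 median-ratio, -0.033 rescaled, -0.10 without both libraries numbered 3), ABF1 (-0.060, -0.074 and -0.052 under the rescalings) and ABI3 (-0.011 median-ratio). In the overexpression line they changed for EEL (0.27, 0.28 and 0.24), AREB3 (0.26, 0.26 and 0.24), ABF1 (0.037, 0.027 and 0.0077) and bZIP67 (-0.095 without both numbered 3). Against the knockout they changed for EEL (0.31, 0.27 and 0.27), AREB3 (0.23, 0.21 and 0.19) and ABF1 (0.10, 0.10 and 0.060). With 1 library left out, the knockout values ran from -0.14 to 0.33 for EEL, -0.027 to 0.23 for AREB3, -0.22 to 0.18 for bZIP67, -0.11 to 0.077 for bZIP53, -0.13 to 0.11 for ABF1 and -0.0086 to 0.15 for ABI3. The overexpression values ran from -0.25 to 0.047 for EEL, -0.21 to 0.036 for AREB3 and -0.095 to 0.24 for bZIP67, and those against the knockout from -0.39 to 0.044 for EEL and -0.088 to 0.31 for bZIP67. The cause of these changes was not tested beyond the settings named.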

Other observations

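ABI5 and 4 of the 5 genes nearest to it had the same place within each genotype in the libraries numbered 2, a pattern noticed after the values were seen. ABI5 was highest in replicate 2 of each group, at 27.3, 6.96 and 44.0 TPM in the wild type, knockout and overexpression line. LEA76, RAB18, AT1G72100 and AT4G25580 were also highest there, which their choice by nearness to ABI5 over the same libraries favours. EEL, at 45.0, 41.3 and 49.1 TPM, and AREB3, at 14.6, 17.6 and 15.8 TPM, were lowest in the same 3 libraries. Within each genotype ABI5 and EEL thus stood at opposite ends in replicate 2, while between genotypes ABI5 changed and EEL did not pass the threshold.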
